A study of Mus musculus with 46 samples.

Results

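Deep chandelier cells were compared with parvalbumin (PV) basket cells, library by library, in mouse frontal cortex. The comparison rested on the 52 cells whose names begin with CHC2, in 4 libraries, and the 127 cells whose names begin with PVC, in 16 libraries, out of 584 red-fluorescent GABAergic neurons, isolated singly from dissected slices, in 46 libraries. Membership came from the cell names alone and used no measured value. The series as a whole asks which transcripts mark the identity and the synaptic communication of genetically labelled GABAergic types, and its 5 other types served for comparison and for the spread shared in the fit.

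Chandelier and PV basket cells are both fast-spiking inhibitory neurons that arise largely from the medial ganglionic eminence and control the output of pyramidal neurons. Chandelier cells place rows of boutons, called cartridges, on the axon initial segment, where action potentials start. Basket cells surround the cell body and proximal dendrites and are known for parvalbumin, for potassium channels of the Kv3 family and for synaptotagmin 2 in their terminals.

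The CHC2 cells came from Nkx2.1-CreER; Ai14 mice, in which a tamoxifen-dependent Cre recombinase under Nkx2-1 control switches on a red reporter. The induction statement carried by the labels is 150 µl of 20 mg/ml tamoxifen at E17.5, before birth. The labels of all 46 samples, including PVC and the other types, carry this same statement. Layers 5 and 6 were taken from animals 11 (libraries 1 and 2) and 12 (libraries 3 and 4), both male and 34 days old, and the libraries ran on flow cell AC5HYLACXX. The PVC cells came from Pv-iresCre; Ai14 mice, in which Cre is driven from the Pvalb locus, and from all layers. Their animals were 7 (male, 81 days), 8 (female, 58 days), 9 (male, 83 days) and 10 (female, 83 days), on flow cell BC44WUACXX. Upper chandelier cells (CHC1, 80 cells in 5 libraries from animals 13 and 14, female, 40 to 58 days old) carried the same driver and were taken at the border of layer 1 with layer 2/3 and ran on another flow cell. The labels of animal 14 differ: 58 days and reporter Ai15 for CHC1 library 3, but 40 days and Ai14 for libraries 4 and 5, so values that rest on this animal rest on an uncertain label. The other types carried Ai65 with Sst-Flp; CR-Cre (MNC, Martinotti cells, 35 days), Vip-Flp; CR-Cre (ISC, interneuron-selective cells, 32 days), Vip-Flp; CCK-Cre (CCKC, CCK basket cells, 39 to 40 days) or Sst-Flp; Nos1-Cre (LPC, long-projecting cells, 28 to 29 days). MNC and ISC animals were female, and CCKC and LPC animals male. The labels number 18 animals in all, whereas the design text of the series speaks of 4; the animals were used as labelled. Driver, layer, age, sex and flow cell therefore changed together with cell type and cannot be told apart here. No flow cell held both types, so there is no value within 1 flow cell.

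The deposited key of cells gives each cell a barcode, and the barcodes show how the PVC libraries relate to each other. The key holds 16 barcodes of 7 variable bases, printed in capitals, followed by the same 2 bases in each, in lower case. PVC library 1, like 7 other PVC libraries, drew its cells from this set of 8:
PVC-1 barcode 1: TGTAACCac
PVC-1 barcode 2: TAGGAGCac
PVC-1 barcode 3: GCACAGGac
PVC-1 barcode 4: ACTCTGGac
PVC-1 barcode 5: CCTGACGac
PVC-1 barcode 6: GACGTGGac
PVC-1 barcode 7: CTTCTGCac
PVC-1 barcode 8: AAGATCGac
PVC library 3, like the remaining 7, drew its cells from the other 8:
PVC-3 barcode 1: CGTGACCac
PVC-3 barcode 2: CTTATGGac
PVC-3 barcode 3: TGGTACCac
PVC-3 barcode 4: GTCTACGac
PVC-3 barcode 5: CCTAAGCac
PVC-3 barcode 6: CGCGTCGac
PVC-3 barcode 7: CAGTTGCac
PVC-3 barcode 8: AGCAAGCac
These 2 sets share no barcode. PVC libraries 1 and 3 carried the same index on neighbouring lanes, and 8 such pairs were found. Summed over cells, the libraries of a lane pair differed by 1.25 to 1.93 times the sampling noise, against 9.46 to 35.2 times for PVC libraries outside a pair, although the labels put the 2 libraries of a pair in different animals. The 16 PVC libraries were therefore read as 8 lane pairs, and animals 7 and 8, and 9 and 10, were summed into 2 replicates. The CHC2 libraries showed no such pairing: they shared 7 to 14 barcodes with each other and differed by 85.5 to 140 times the sampling noise, 107 and 115 times within an animal.

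Depth was of the same order in both types. CHC2 libraries held 1305160 to 2905296 counts and PVC libraries 669418 to 3036495, with 86145 counts in the median CHC2 cell and 130761 in the median PVC cell. At a common depth of 600000 counts, 10200 to 11880 genes were detected per CHC2 library and 12539 to 14148 per PVC library, and no library of another type lay below 12442, apart from 1 ISC library that was too shallow to be read at this depth. Profiles also spread more among the CHC2 libraries: r between pairs was 0.622 to 0.741 for CHC2 and 0.835 to 0.902 for PVC lane pairs, and the median SD over 7418 genes was 1.39 log2 units in CHC2 and 0.53 in PVC. Cells within a CHC2 or PVC library differed by only 1.01 to 1.37 times the sampling noise, so the library, not the cell, was taken as the unit. Levels below are in CPM, counts scaled to a library total of 1000000, given for CHC2 libraries 1, 2, 3 and 4 in that order and then for the 8 PVC lane pairs as a range with the median.

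Mean profiles of PV basket cells correlated with each CHC2 library slightly less than those of upper chandelier cells. Correlations were taken on log2(CPM + 1), with CPM further scaled by edgeR's TMM factors. Across 15533 genes, Pearson's r with the PVC mean profile was 0.776, 0.715, 0.800 and 0.754 for libraries 1 to 4. With the CHC1 mean it was 0.797, 0.722, 0.824 and 0.772, the highest of the 6 other types in each library, also by rank correlation and over genes of at least 50 CPM. The r with PVC was lower than that with CHC1 by 0.021 in library 1, 0.008 in library 2, 0.025 in library 3 and 0.018 in library 4, so library 2 was nearly as close to one as to the other. With PVC lane pairs and CHC1 libraries in place of means the order turned for library 2, whose median r was 0.677 with PVC and 0.672 with CHC1. Libraries 1, 3 and 4 had lower medians with PVC (0.735, 0.759 and 0.714) than with CHC1 (0.740, 0.769 and 0.719). Lane pairs are summed libraries of 1374658 to 4440593 counts, against 916788 to 2339398 in CHC1 libraries, so these medians compare unlike depths. The CHC2 libraries correlated with the mean of their own 3 companions at 0.796, 0.723, 0.798 and 0.757, in libraries 1, 3 and 4 below the value with CHC1. The means average 3 companions, 5 CHC1 libraries or 8 PVC lane pairs, so their r values compare means of unlike numbers of profiles. Over genes of at least 50 CPM library 1 was closer to its companions (0.684) than to CHC1 (0.661), and by rank correlation library 2 was closer to CHC1 (0.715) than to its companions (0.709). These values run across genes, which share depth and library and are not independent replicates, and they carry no test.

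**Figure D1:**
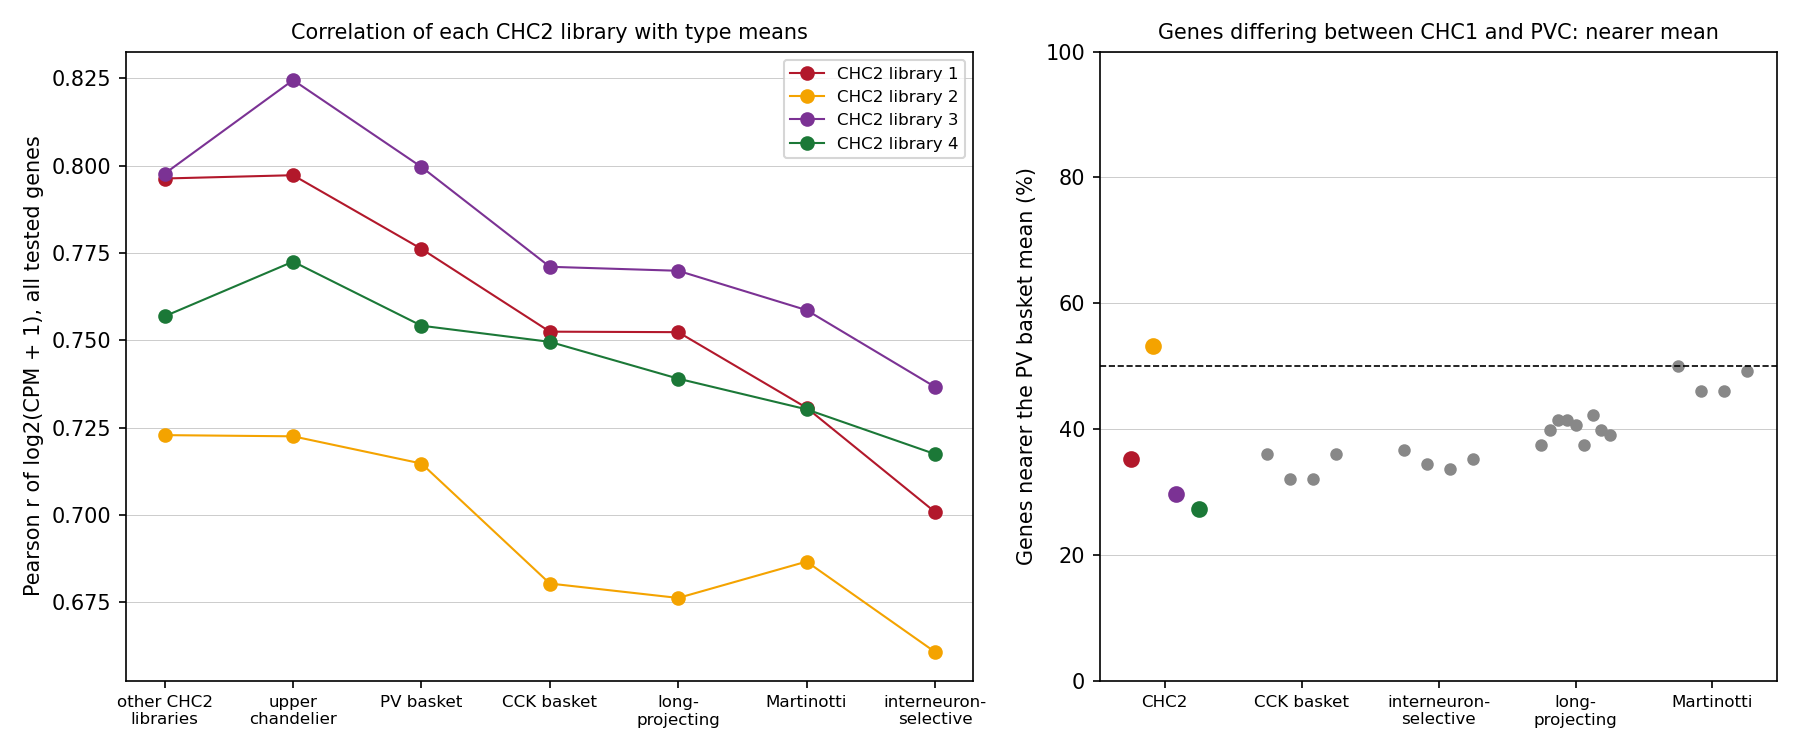
Left, Pearson correlation of each of the 4 CHC2 libraries (coloured lines) with the mean profile of the other CHC2 libraries and of the 6 other types; the upper chandelier value is the highest of those 6 in each library, and library 2 lies lowest throughout. Right, percent of the 128 genes that differ between CHC1 and PVC at which a library lies nearer the PVC mean, for CHC2 (coloured) and the 4 types that did not choose the genes (grey), with a dashed line at 50%.

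At genes chosen without any CHC2 sample, libraries 1, 3 and 4 lay mostly nearer CHC1 and library 2 did not. In a fit that left out the CHC2 libraries, 128 of 15477 genes (0.827%) differed between CHC1 and PVC, 78 higher in CHC1 and 50 higher in PVC. CHC2 library 1 lay nearer the PVC mean at 45 of these 128 genes (35.2%), library 2 at 68 (53.1%), library 3 at 38 (29.7%) and library 4 at 35 (27.3%). Types that are neither chandelier nor PV basket cells gave 32.0% to 50.0%, so libraries 3 and 4 lay below that range, library 1 inside it and library 2 above it. Of the 78 genes higher in CHC1, 28, 43, 21 and 17 lay nearer PVC in libraries 1 to 4. Of the 50 higher in PVC, 17, 25, 17 and 18 did. Of the 128 genes, 44 lay nearer CHC1 in each CHC2 library, among them Syt2, Nefh, Kcna2, Slc32a1, Hpca, Adarb2, Rph3a and Pcdh8. Nearer CHC1 does not mean at its level. Slc32a1 lay below it, at 339 to 857 CPM in CHC2 and 1061 to 1471 CPM in CHC1. Kcna2 did too, at 42.1 to 120 CPM in CHC2 and 122 to 182 CPM in CHC1. For the other genes named, the ranges of CHC2 and CHC1 overlapped. Another 13 lay nearer PVC in each CHC2 library, among them Rab3c (a vesicle GTPase), Cacnb4 (a calcium channel beta subunit) and the Y-linked Ddx3y. The remaining 71 were split between libraries. The Y-linked Eif2s3y and the activity-responsive Egr1 and Npas4 were also among the 128. CHC1 animals were labelled female, CHC2 animals male and PVC animals of both sexes. The part of sex in these positions was not tested.

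Gene by gene, the quasi-likelihood test of edgeR, with p-values adjusted after Benjamini and Hochberg, called 1069 of 15533 genes between CHC2 and PVC (6.88%), 483 higher in CHC2 (3.11%) and 586 lower (3.77%). The 4 CHC2 libraries lay above all 8 lane pairs at 274 genes (1.76%) and below all of them at 1331 (8.57%), and 182 (1.17%) and 491 (3.16%) of these were also called. Scaling by DESeq2 size factors gave 654 higher and 528 lower, and it moved the median log2 fold change of all tested genes to 0.01, against -0.10 with the scaling used here, so the share of calls in one direction depends on the scaling (55.3% higher there, 45.2% here). The calls rest on a spread shared by all 7 types: with CHC2 and PVC alone in edgeR's fit, which has 2 replicates of each, 0 genes passed and 2595 of 13620 had an unadjusted p under 0.05, whereas DESeq2 over all types called 1489 and 1242. With a separate spread for each type, limma called 362 higher and 39 lower. The labels give each library a batch number. Each CHC2 library has its own, PVC libraries on the same lane share a number, and CHC2 and PVC share none. The libraries of a lane pair carry different numbers. The fit did not use these numbers, and p-values measure the spread between the replicate sums, which may be technical in part.

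Few genes could be placed within 2-fold of PVC. Among 5693 genes of at least 50 CPM in either type, the 95% interval of the fold change lay within 2-fold either way for 354 (6.22%), and excluded every fold under 2 for 502. CHC2 library 3 lay within the range of the PVC lane pairs at 2119 of these genes, library 1 at 1950, library 4 at 1697 and library 2 at 1354. Library 2 lay below the range at 2741. Of the genes on the lists and rules used here, 100 were called, 52 higher in CHC2 and 48 lower. Leaving out 1 of 2 CHC2 animals, 1 of 2 PVC animal pairs or 1 of 4 CHC2 libraries gave 8 further fits. The call of 26 genes held in each of these 8, among them Kit, Adarb2, Pcdh8, Ftl1, Mpdz, Cacna1g, Cacna2d1 and Oprm1 higher, and Xist, Aldoc, Slit2, Rbp4, Eif5a2, Lypd6b, Lgals1, Cdh7, Cox5a, Cox6c, Cox7b, Kcna2, Kcna6, Nefh, Pcdh7, Slc32a1 and Vgf lower. With a separate spread for each type in limma, all 9 of these that rose kept their call, but of the 17 that fell only Xist, Cox5a, Cox6c, Cox7b, Kcna2 and Slc32a1 did. The adjusted p was then 0.207 for Aldoc, 0.0721 for Slit2, 0.181 for Rbp4, 0.115 for Eif5a2, 0.289 for Lypd6b, 0.262 for Lgals1, 0.119 for Cdh7, 0.0616 for Kcna6, 0.0610 for Nefh, 0.134 for Pcdh7 and 0.192 for Vgf. Among called genes named below, the separate spread also ended the calls of Sst, Vip, Slc30a3, Ptgs1, Cartpt, Paqr7, Rcc1, Klhl5, Adcyap1r1, Atp5g3, Atp5k, Atp5o, Cacna2d2, Cacna2d3, Cacng5, Cdh18, Chrm3, Cox8a, Egr1, Elfn1, Gad2, Grik3, Grm4, Hpca, Kcnc1, Ndufa1, Ndufa5, Ndufa6, Ndufb3, Nefm, Npy2r, Reln, Scn4b, Sema3c, Sema5b, Slit3, Sox6, Syt1, Syt2, Uqcrb, Vamp1, Vipr2 and Vsnl1, at adjusted p of 0.0523 to 0.765. For the other called genes named below, the adjusted p in each of these 8 fits that ended the call is given with the sample left out, PVC 7 and 8 or PVC 9 and 10 standing for the PVC animal pairs. Without animals 7 and 8 only 35 of the 100 passed, and without animals 9 and 10 only 31, each time with 1 PVC replicate left.

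Pvalb, the calcium-binding protein that defines the PVC driver, stood at 0, 553, 172 and 165 CPM in CHC2 libraries and at 809 to 1310.4 CPM (median 1009) in PVC lane pairs. All 4 CHC2 libraries lay below all PVC lane pairs, yet library 1 held no Pvalb count in any of its 14 cells. With the library as the unit this is 1 observation, and 3 counts there would be 2.14 CPM. The change did not pass (log2 fold change -1.98 ± 1.02 (SE), adjusted p = 0.245), and its 95% interval ran from -4.17 to 0.21. Nkx2-1, the transcription factor behind the CHC2 driver, was at 15.0, 16.1, 60.2 and 16.5 CPM in CHC2 libraries and 14.6 to 29.2 CPM (median 20.4) in PVC, so libraries 1, 2 and 4 lay within the PVC range and library 3 lay above it (log2 fold change 0.74 ± 0.67, adjusted p = 0.522). These levels were measured weeks after the embryonic induction and do not check the label. Upper chandelier libraries held 48.0 to 108 CPM.

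Of 12 tested PV basket markers, 3 fell, 1 rose and 8 did not pass, against 3.77% and 3.11% of all tested genes, shares that stand beside every list below, and the list's median log2 fold change was -1.20, against -0.10 for all genes. Syt2, the fast calcium sensor for release at basket cell terminals, was at 1.43, 3.06, 0.344 and 1.65 CPM in CHC2 and 26.9 to 154 CPM (median 49.4) in PVC (log2 fold change -5.18 ± 0.98, adjusted p = 0.00811). Syt2 had an adjusted p of 0.0767 without PVC 7 and 8. Nefh, the heavy neurofilament subunit, was at 0.715, 31.4, 15.1 and 0 CPM in CHC2 and 113 to 281 CPM (median 212) in PVC (log2 fold change -3.84 ± 0.55, adjusted p = 0.00180). All 4 deep libraries lay below every lane pair for both genes. Kcnc1, the Kv3.1 channel that speeds repolarisation, was at 155, 123, 224 and 86.5 CPM in CHC2 and 269 to 637 CPM (median 518) in PVC (log2 fold change -1.35 ± 0.32, adjusted p = 0.0245). Kcnc1 had an adjusted p of 0.0666 without library 4, 0.0754 without animal 11, 0.207 without PVC 7 and 8 and 0.0769 without PVC 9 and 10.

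Other PV basket markers did not follow this direction in each library. Tac1, the substance P precursor, was at 5.72, 1434, 0 and 0 CPM in CHC2 and 443 to 1465 CPM (median 719) in PVC, so library 2 alone lay inside the PVC range and 2 libraries held none. Kcnab1, a Kv1 beta subunit, was at 242, 382, 371 and 354 CPM in CHC2 and 267 to 419 CPM (median 371) in PVC, with libraries 2 to 4 inside the PVC range and a 95% interval of -0.80 to 1.15 for the log2 fold change. Pthlh, the parathyroid hormone-like peptide, moved the other way, at 177, 1.53, 230.3 and 186 CPM in CHC2 and 0 to 80.0 CPM (median 10.0) in PVC (log2 fold change 3.41 ± 0.74, adjusted p = 0.0170). Pthlh had an adjusted p of 0.162 without library 1 and 0.136 without PVC 9 and 10. Here library 2 was the low one and the other 3 exceeded every PVC lane pair. Counting the 12 markers, library 1 lay below the PVC range at 11, library 2 at 8 and libraries 3 and 4 at 9 each, and libraries 1, 3 and 4 exceeded it only at Pthlh.

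**Figure D2:**
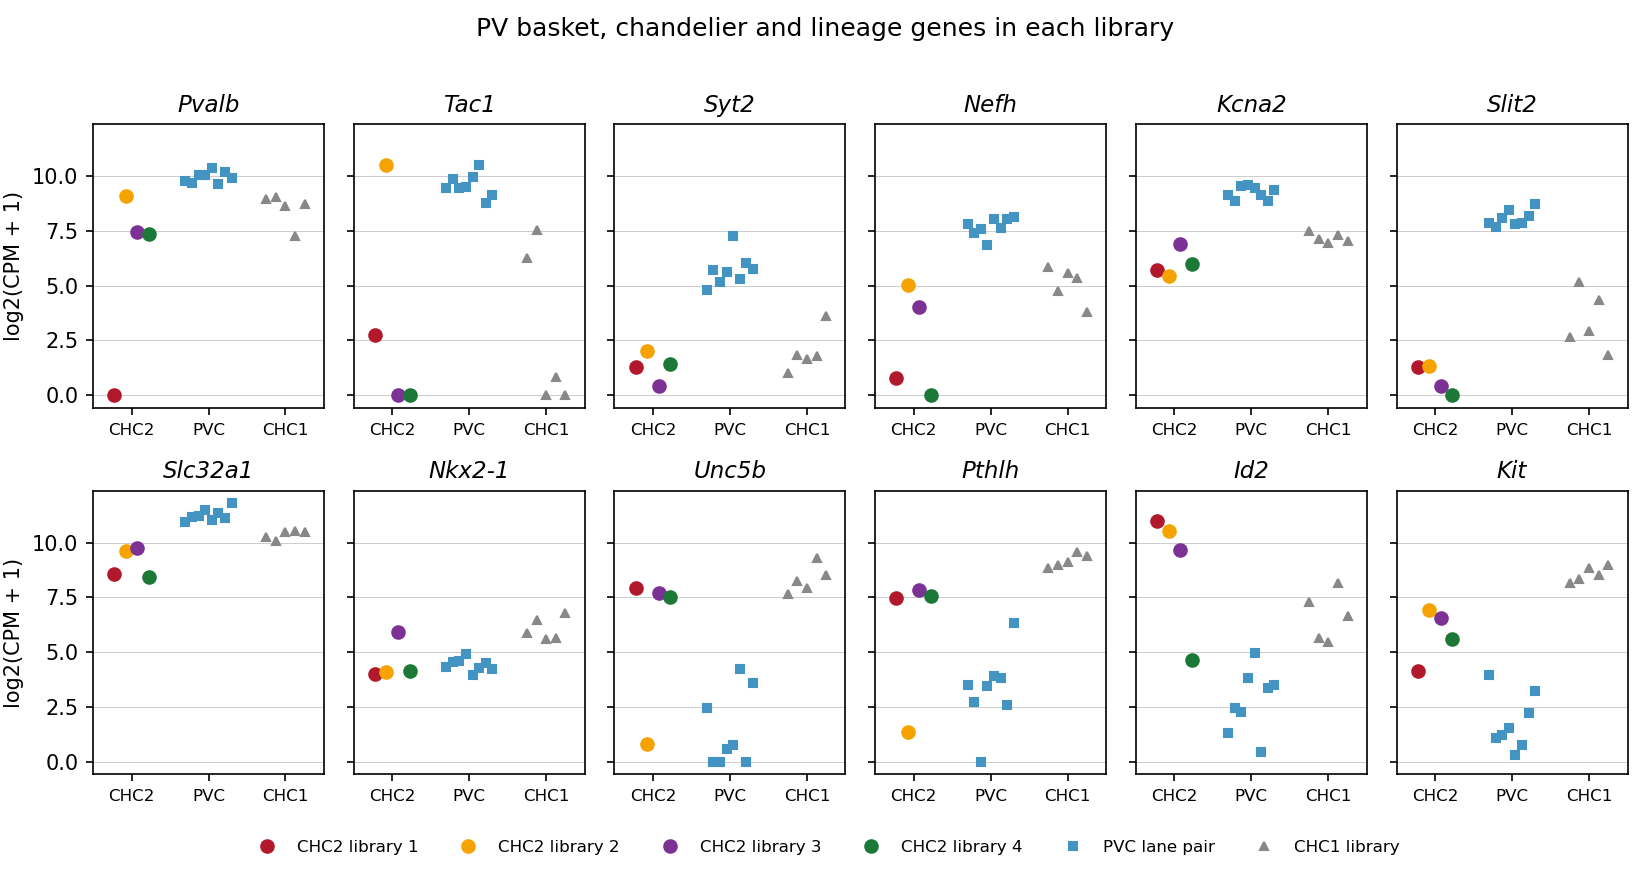
Level of 12 genes as log2(CPM + 1) in the 4 CHC2 libraries (coloured circles), the 8 PVC lane pairs (blue squares) and the 5 CHC1 libraries (grey triangles). Syt2, Nefh, Kcna2, Slit2 and Slc32a1 lie below all PVC points in the 4 CHC2 libraries, whereas library 2 alone reaches the PVC level of Tac1 and library 2 alone is low in Unc5b and Pthlh.

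Channels that shape fast spiking were lower or unresolved. Of 17 tested, 4 fell and none rose, 9 lay below all PVC lane pairs in all 4 libraries (8.57% of all genes did), and the median was -1.35. Kcna2, the Kv1.2 channel of the axon, was at 52.2, 42.1, 119.8 and 63.1 CPM in CHC2 and 460.3 to 772 CPM (median 612) in PVC (log2 fold change -2.89 ± 0.46, adjusted p = 0.00350). Kcna6, its relative Kv1.6, was at 80.1, 3.06, 42.0 and 53.8 CPM in CHC2 and 252 to 448 CPM (median 323) in PVC (log2 fold change -2.69 ± 0.49, adjusted p = 0.00761). Scn4b, the sodium channel beta subunit linked to resurgent current, held 0 counts in CHC2, against 1.51 to 59.8 CPM in PVC, and was at least 59.9-fold lower, taking 3 counts over the CHC2 group as the floor (adjusted p = 0.0237). Scn4b had an adjusted p of 0.0578 without animal 11, 0.0549 without animal 12, 0.139 without PVC 7 and 8 and 0.0997 without PVC 9 and 10. It also had no count in the 5 upper chandelier libraries. Kcnc2, the Kv3.2 channel, was at 207, 1059, 328 and 94.4 CPM in CHC2 and 1135 to 1628 CPM (median 1314) in PVC and did not pass (adjusted p = 0.0794), nor did Scn1a or Kcns3, whose CHC2 and PVC ranges overlapped. Among 4 neurofilament genes Nefm fell along with Nefh, at 2.14, 0, 5.16 and 0 CPM in CHC2 and 14.1 to 217 CPM (median 57.5) in PVC (adjusted p = 0.0313, and 0.0502 without library 1, 0.0510 without library 4, 0.107 without animal 11, 0.0527 without animal 12, 0.174 without PVC 7 and 8 and 0.0769 without PVC 9 and 10). Nefl and Ina did not pass.

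Chandelier markers were higher in most, not all, deep libraries. Of 8 tested, 4 rose and none fell, with a median of 3.04. Unc5b, a netrin receptor, was at 240.2, 0.766, 204 and 182 CPM in CHC2 and 0 to 17.7 CPM (median 0.573) in PVC (adjusted p = 0.0311). Unc5b had an adjusted p of 0.118 without library 1, 0.0960 without PVC 7 and 8 and 0.219 without PVC 9 and 10. Libraries 1 and 3 lay within the range of upper chandelier cells, 199.6 to 629 CPM, library 4 just below it, and library 2 held 1 count. It was found in 13 of 14, 1 of 14, 16 of 16 and 8 of 8 cells of CHC2 libraries 1 to 4, against 29 of 127 PVC cells. Cells within a library hardly differed, so these tallies describe libraries and are not counts of independent cells. Trps1, a zinc finger repressor, was at 813, 373, 857 and 695 CPM in CHC2 and 61.4 to 232 CPM (median 106) in PVC, above every lane pair in all 4 libraries (log2 fold change 2.84 ± 0.77, adjusted p = 0.0415). Trps1 had an adjusted p of 0.0578 without library 1, 0.0594 without animal 11, 0.0601 without animal 12, 0.194 without PVC 7 and 8 and 0.253 without PVC 9 and 10. It was the one marker of the list whose groups did not overlap.

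Other chandelier markers were called on 1 or 2 libraries, or not called. Vipr2, the VPAC2 receptor, was at 95.1, 0.766, 1.72 and 1.65 CPM in CHC2 and 0 to 1.45 CPM (median 0) in PVC, so library 1 alone was high (adjusted p = 0.0319). Vipr2 had an adjusted p of 0.212 without library 1, 0.245 without animal 11, 0.226 without PVC 7 and 8 and 0.171 without PVC 9 and 10. C1ql1, a secreted synaptic organiser, was at 20.0, 0, 5.16 and 0 CPM in CHC2 and at most 0.711 in PVC (adjusted p = 0.0287). C1ql1 had an adjusted p of 0.123 without library 1, 0.0863 without library 3, 0.0675 without animal 11, 0.187 without PVC 7 and 8 and 0.207 without PVC 9 and 10. Rasgrp1, a Ras exchange factor, at 268, 318, 252 and 23.6 CPM in CHC2 and 22.6 to 61.2 CPM (median 31.6) in PVC, and Cpne5, a copine, at 19.3, 0.766, 35.5 and 52.2 CPM in CHC2 and 1.36 to 5.65 CPM (median 3.07) in PVC, did not pass. Of the 8 markers, library 3 exceeded the PVC range at 7, library 1 at 6, library 4 at 4 and library 2 at 2. Genes tied to innervation of the axon initial segment, such as L1cam, Chl1 and Erbb4, gave no call in either direction with edgeR among 10 tested, of which 2 had an unadjusted p under 0.05 and DESeq2 called 1.

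Of 7 medial lineage factors 2 rose and 1 fell. Lhx6, required for PV and somatostatin cells, was at 97.9, 195, 465 and 170.2 CPM in CHC2 and 69.8 to 115 CPM (median 88.8) in PVC (adjusted p = 0.0380). Lhx6 had an adjusted p of 0.0878 without library 2, 0.0872 without library 3, 0.132 without animal 12, 0.219 without PVC 7 and 8 and 0.195 without PVC 9 and 10. Sox6, which acts after it, was at 55.8, 19.7, 76.9 and 122 CPM in CHC2 and 188 to 358 CPM (median 244) in PVC, below every lane pair (log2 fold change -1.71 ± 0.37, adjusted p = 0.0155). Sox6 had an adjusted p of 0.0766 without library 3, 0.0558 without animal 11, 0.0796 without PVC 7 and 8 and 0.109 without PVC 9 and 10. Maf rose, at 154, 209, 211 and 624 CPM in CHC2 and 30.9 to 133 CPM (median 64.8) in PVC (adjusted p = 0.0226). Maf had an adjusted p of 0.0647 without animal 12, 0.119 without PVC 7 and 8 and 0.204 without PVC 9 and 10. Satb1, a chromatin organiser, was split: 60.8, 785, 0 and 0 CPM in CHC2 and 288 to 478 CPM (median 329) in PVC, with library 2 above the PVC range and 2 libraries at 0. Adarb2, an RNA-binding protein best known from cells of the caudal eminence, was above every lane pair in all 4 libraries, at 189, 363, 149.7 and 2031 CPM in CHC2 and 15.9 to 67.9 CPM (median 32.1) in PVC (log2 fold change 4.26 ± 0.62, adjusted p = 0.00207). It was the 1 call among 6 caudal lineage genes: in CHC2 libraries Prox1 reached 3.84 CPM at most and Nr2f2 2.75, and Sp8 had no count.

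Markers of other GABAergic subclasses separated the deep libraries from each other. Vip, the vasoactive intestinal peptide, was at 0, 0, 2.75 and 1918 CPM in CHC2 and at most 0.859 in PVC, and its call (adjusted p = 0.0428) became 0.388 without library 4, 0.916 without animal 12, 0.264 without PVC 7 and 8 and 0.246 without PVC 9 and 10. Vip counts were found in 8 of 8 cells of library 4, 3 of 16 of library 3 and none of libraries 1 and 2, against 2 of 127 PVC cells. As for Unc5b, these tallies are not counts of independent cells. One upper chandelier library held Vip too, at 374 CPM. In CHC2 library 4, which has 8 cells, Cck, Cnr1, Crh, Npy2r and Penk were also above the PVC range, while Htr3a was at 2.75 CPM and Calb2 and Cxcl14 were at 0. Sst had 0 counts in all 4 deep libraries, against 0, 1.13, 0, 5.65, 0, 0.348, 7.28 and 0 CPM in the 8 PVC lane pairs. By group means it was at least 3.90-fold lower (adjusted p = 0.0113). That bound rested mostly on the lane pairs at 5.65 and 7.28 CPM, and several lane pairs held no Sst either. Sst had an adjusted p of 0.0782 without animal 12 and 0.0552 without PVC 9 and 10. Reln, the secreted glycoprotein reelin, was at 164, 591, 88.8 and 18.1 CPM in CHC2 and 15.3 to 70.6 CPM (median 24.3) in PVC (adjusted p = 0.0168). Reln had an adjusted p of 0.0521 without library 3, 0.165 without animal 11, 0.162 without PVC 7 and 8 and 0.108 without PVC 9 and 10. Elfn1, a postsynaptic organiser, was at 61.5, 9.19, 18.9 and 339.9 CPM in CHC2 and 15.5 to 48.0 CPM (median 28.6) in PVC (adjusted p = 0.0380). Elfn1 had an adjusted p of 0.145 without library 1, 0.735 without library 4, 0.307 without animal 12, 0.209 without PVC 7 and 8 and 0.196 without PVC 9 and 10.

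Neurogliaform markers gave 2 calls of 7. Id2, an inhibitor of helix-loop-helix factors, was at 2053, 1483, 805 and 23.6 CPM in CHC2 and 0.348 to 30.4 CPM (median 6.81) in PVC, so libraries 1 to 3 exceeded the PVC range and library 4 lay within it (log2 fold change 7.01 ± 1.07, adjusted p = 0.00342). Id2 had an adjusted p of 0.0552 without PVC 9 and 10. Kit, a receptor tyrosine kinase, was at 16.4, 122, 94.3 and 47.8 CPM in CHC2 and 0.225 to 14.5 CPM (median 1.59) in PVC, above every lane pair (log2 fold change 4.74 ± 0.60, adjusted p = 0.000646). Upper chandelier cells held more Kit than either, 288 to 510.2 CPM. The part of other cell types in these differences between libraries was not tested.

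Genes of GABA synthesis and transport changed in both directions. Gad1 was at 2054, 1892, 1492 and 1361 CPM in CHC2 and 1365 to 2008 CPM (median 1486) in PVC, with a 95% interval of -0.30 to 0.94 for its log2 fold change. Slc32a1, the vesicular GABA transporter, was below every lane pair, at 373, 778, 857 and 339 CPM in CHC2 and 1967 to 3531 CPM (median 2311) in PVC (log2 fold change -1.79 ± 0.21, adjusted p = 0.000346). Gad2, a second synthesis enzyme, was at 1747, 1049, 1197 and 708 CPM in CHC2 and 415 to 849 CPM (median 544) in PVC (log2 fold change 1.33 ± 0.31, adjusted p = 0.0214). Gad2 had an adjusted p of 0.0971 without animal 11, 0.0953 without PVC 7 and 8 and 0.198 without PVC 9 and 10. The transcription factor Dlx1 was at 519, 146, 192 and 523 CPM in CHC2 and 88.5 to 195 CPM (median 117) in PVC (log2 fold change 1.53 ± 0.31, adjusted p = 0.0108). Dlx1 had an adjusted p of 0.0627 without library 1, 0.0564 without PVC 7 and 8 and 0.140 without PVC 9 and 10. Of the 10 genes of GABAergic identity tested, 3 rose and 1 fell, with a median of 0.27.

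Release genes were called in shares near those of all genes (3.11% higher, 3.77% lower), so their counts are no result about the group. Vamp1, the vesicle SNARE of fast-firing neurons, was at 2.86, 53.6, 40.3 and 56.0 CPM in CHC2 and 164 to 423 CPM (median 279) in PVC, below every lane pair (log2 fold change -2.71 ± 0.56, adjusted p = 0.0125). Vamp1 had an adjusted p of 0.0527 without library 1, 0.0544 without animal 11, 0.120 without PVC 7 and 8 and 0.0552 without PVC 9 and 10. Its relative Vamp2 was at 284, 222, 419 and 369 CPM in CHC2 and 137 to 211 CPM (median 193) in PVC, above every lane pair, and did not pass (adjusted p = 0.0695). Rph3a, a Rab3 effector, was at 57.9, 146, 38.2 and 52.7 CPM in CHC2 and 5.46 to 19.6 CPM (median 9.28) in PVC (log2 fold change 3.14 ± 0.56, adjusted p = 0.00685). Rph3a had an adjusted p of 0.0804 without PVC 7 and 8 and 0.0772 without PVC 9 and 10. Syt1, the general calcium sensor, was at 3225, 3452, 2951 and 2082 CPM in CHC2 and 1719.8 to 2394 CPM (median 2133) in PVC (log2 fold change 0.77 ± 0.21, adjusted p = 0.0431). Syt1 had an adjusted p of 0.0530 without library 2, 0.0668 without library 3, 0.207 without animal 11, 0.174 without PVC 7 and 8 and 0.253 without PVC 9 and 10. Of 22 release genes 1 rose and 2 fell, and of 17 synaptotagmins and complexins 1 rose and 1 fell, with medians of -0.28 and -0.33 (-0.32 with the gene of no count in a group at its bound). Among 12 calcium-binding proteins Hpca, the sensor hippocalcin, rose (log2 fold change 2.85 ± 0.69, adjusted p = 0.0266; 0.151 without animal 11, 0.157 without PVC 7 and 8 and 0.205 without PVC 9 and 10) and Vsnl1, a related sensor, fell (adjusted p = 0.0471, 0.496 without library 1, 0.0529 without library 4, 0.147 without animal 12, 0.198 without PVC 7 and 8 and 0.183 without PVC 9 and 10, and 0.0830 with DESeq2 size factors).

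Of 15 calcium channel subunits 3 rose and 1 fell, with a median of 0.67. Cacna2d1, the alpha2delta-1 subunit that carries channels to terminals, was at 543, 974, 922 and 63.1 CPM in CHC2 and 43.7 to 129 CPM (median 75.8) in PVC (log2 fold change 3.38 ± 0.36, adjusted p = 0.000189). Libraries 1 to 3 exceeded every lane pair and library 4 lay within their range. Cacna2d2 moved the other way, at 9.29, 4.60, 18.2 and 1.10 CPM in CHC2 and 134 to 232 CPM (median 155) in PVC, below every lane pair (log2 fold change -3.91 ± 0.87, adjusted p = 0.0172). Cacna2d2 had an adjusted p of 0.0638 without animal 11, 0.0960 without PVC 7 and 8 and 0.0876 without PVC 9 and 10. Cacna2d3 was at 248, 23.8, 63.0 and 277 CPM in CHC2 and 18.4 to 47.3 CPM (median 27.4) in PVC, inside the PVC range in library 2 alone (log2 fold change 2.45 ± 0.38, adjusted p = 0.00305). Cacna2d3 had an adjusted p of 0.0707 without library 1. Cacna1g, the T-type channel Cav3.1, was at 77.2, 3.83, 74.3 and 22.5 CPM in CHC2 and 1.39 to 11.4 CPM (median 3.60) in PVC (log2 fold change 3.46 ± 0.45, adjusted p = 0.000863), again within the PVC range in library 2. Kcnd3, the A-type potassium channel Kv4.3, exceeded every lane pair in all 4 libraries, at 75.8, 116, 282 and 395 CPM in CHC2 and 4.90 to 49.8 CPM (median 11.2) in PVC (log2 fold change 3.67 ± 0.63, adjusted p = 0.00559). Kcnd3 had an adjusted p of 0.0767 without PVC 7 and 8 and 0.0552 without PVC 9 and 10.

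**Figure D3:**
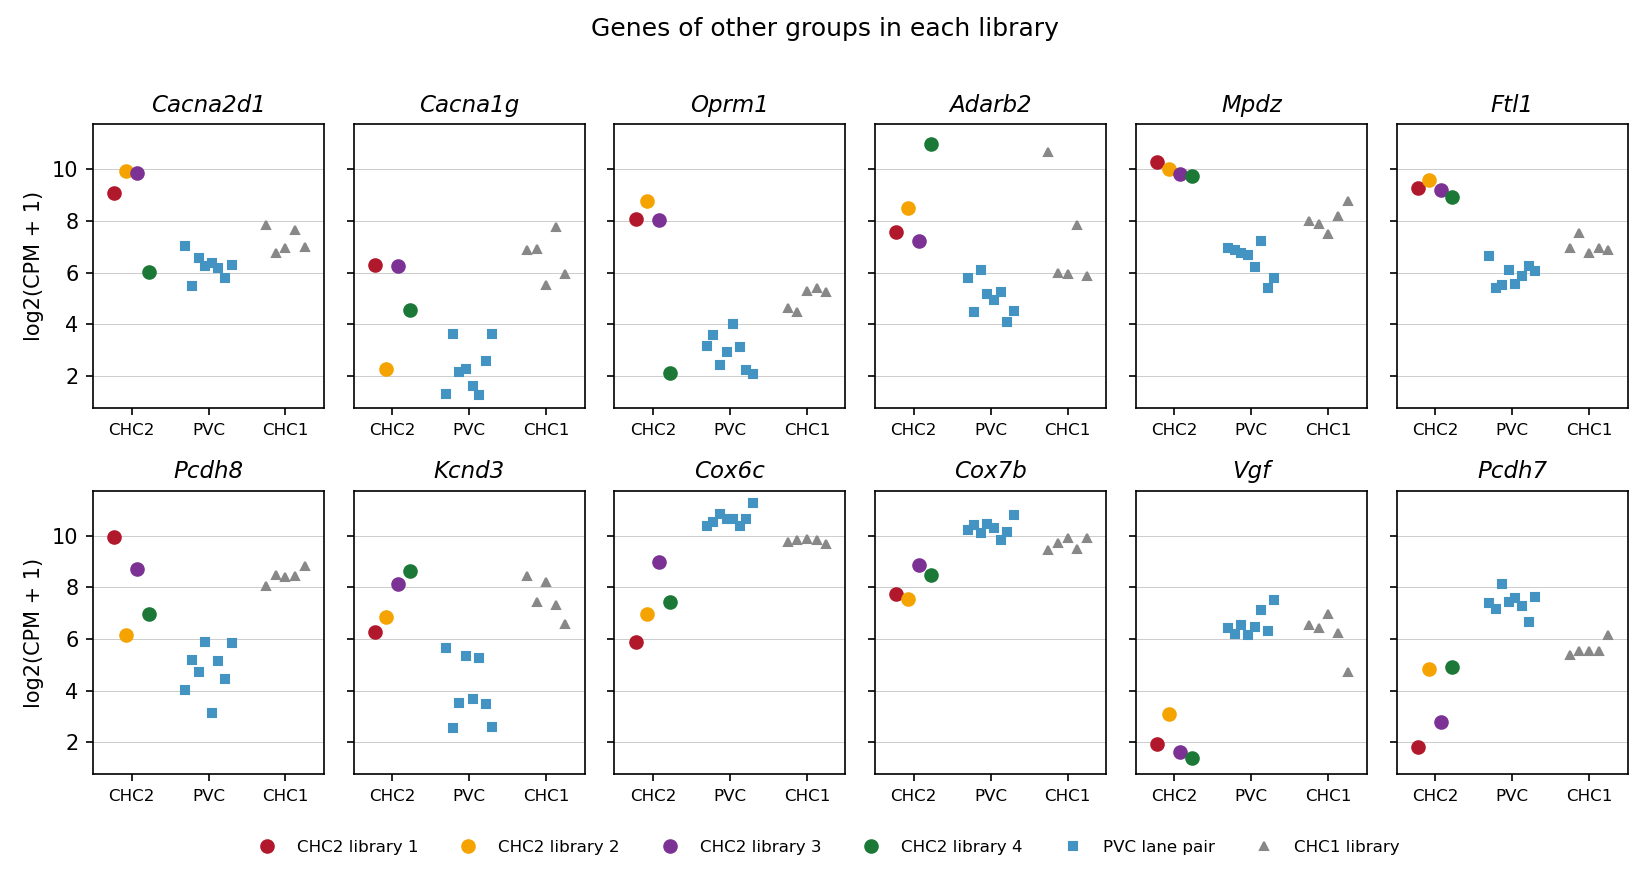
Level of 12 further genes as log2(CPM + 1) in the 4 CHC2 libraries (coloured circles), the 8 PVC lane pairs (blue squares) and the 5 CHC1 libraries (grey triangles). Adarb2, Mpdz, Ftl1, Pcdh8 and Kcnd3 exceed all PVC points and Cox6c, Cox7b, Vgf and Pcdh7 lie below them in the 4 CHC2 libraries, while library 4 stands apart for Cacna2d1 and Oprm1 and library 2 for Cacna1g.

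Counts of called receptors for fast transmitters lay near the 6.88% of all tested genes and are no result about these lists. Of 12 GABA-A subunits edgeR called none in either direction, although 3 had an unadjusted p under 0.05 and DESeq2 called 2. The list had a median log2 fold change of 0.10. Of 18 ionotropic glutamate receptor genes Grik3, a kainate subunit, alone passed, at 192, 162, 231 and 128 CPM in CHC2 and 64.0 to 132 CPM (median 83.6) in PVC (log2 fold change 1.33 ± 0.32, adjusted p = 0.0258). Grik3 had an adjusted p of 0.0534 without library 3, 0.192 without PVC 7 and 8 and 0.126 without PVC 9 and 10. Gria1 was at 2044, 633, 2834 and 1725 CPM in CHC2 and 1357 to 1784 CPM (median 1471) in PVC, and Gria3 lay below every lane pair at 109, 109, 179 and 140.0 CPM in CHC2, against 301 to 541 CPM (median 415) in PVC, without passing (adjusted p = 0.0574). Grm4 alone rose among 7 metabotropic receptors, at very low levels: 0.715, 10.7, 2.07 and 12.1 CPM in CHC2 and at most 2.13 in PVC (adjusted p = 0.0430). Grm4 had an adjusted p of 0.139 without library 2, 0.0950 without library 4, 0.0655 without animal 11, 0.171 without PVC 7 and 8 and 0.297 without PVC 9 and 10. The 1 call among 9 AMPA receptor auxiliary genes, Cacng5, came from library 3 at 49.2 CPM (adjusted p = 0.0294). Cacng5 had an adjusted p of 0.119 without library 3, 0.613 without animal 12, 0.217 without PVC 7 and 8 and 0.157 without PVC 9 and 10, and its log2 fold change of 6.34 turned to -3.10 without animal 12.

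Of 21 neuropeptide receptors 5 rose and none fell, against 3.11% and 3.77% of all tested genes, with a median of 1.41. Oprm1, the mu opioid receptor, was at 271, 436, 263 and 3.29 CPM in CHC2 and 3.20 to 15.1 CPM (median 7.12) in PVC (log2 fold change 5.24 ± 0.77, adjusted p = 0.00212), so 3 libraries were high and library 4 lay near the lowest PVC value. Hcrtr2, an orexin receptor, was likewise low in library 4, at 57.9, 10.7, 57.1 and 0 CPM in CHC2 and 0.754 to 2.48 CPM (median 1.67) in PVC (log2 fold change 4.55 ± 0.81, adjusted p = 0.00676). Hcrtr2 had an adjusted p of 0.110 without library 3, 0.0791 without PVC 7 and 8 and 0.0960 without PVC 9 and 10. Adcyap1r1, the PACAP receptor, rested on library 2 at 723 CPM (adjusted p = 0.0295, 0.812 without library 2, 0.199 without animal 11, 0.151 without PVC 7 and 8 and 0.219 without PVC 9 and 10), and Npy2r on library 4 at 304 CPM, against 0 counts in PVC (adjusted p = 0.0352). Npy2r had an adjusted p of 0.382 without library 4, 1.00 without animal 12, 0.200 without PVC 7 and 8 and 0.196 without PVC 9 and 10. Among 25 monoamine and acetylcholine receptors Chrm3, a muscarinic receptor, rose at 129, 241, 197 and 311 CPM in CHC2 and 38.7 to 78.6 CPM (median 52.3) in PVC, above every lane pair (log2 fold change 2.19 ± 0.43, adjusted p = 0.00975). Chrm3 had an adjusted p of 0.111 without PVC 7 and 8 and 0.0812 without PVC 9 and 10. Chrna5, a nicotinic subunit, was at 8.58, 0, 24.8 and 0.549 CPM in CHC2 and 0 counts in PVC, at least 68.9-fold higher against the floor of 3 counts over the PVC group (adjusted p = 0.0380, 0.0823 without library 1, 0.0756 without library 3, 0.0595 without animal 12, 0.193 without PVC 7 and 8 and 0.188 without PVC 9 and 10 and 0.274 in DESeq2). Vgf, a secreted peptide precursor, was 1 of 2 neuropeptide genes of 17 that fell, at 2.86, 7.66, 2.07 and 1.65 CPM in CHC2 and 70.2 to 180.3 CPM (median 86.8) in PVC (log2 fold change -4.63 ± 0.54, adjusted p = 0.000346), below every lane pair.

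Of 26 axon guidance genes 5 rose and 3 fell, with a median of -0.39. The netrin receptors Unc5c and Unc5d rose: Unc5d was at 559.8, 793, 867 and 532 CPM in CHC2 and 64.0 to 261 CPM (median 139.9) in PVC, above every lane pair (log2 fold change 2.49 ± 0.47, adjusted p = 0.00800). Unc5d had an adjusted p of 0.0704 without PVC 7 and 8 and 0.101 without PVC 9 and 10. Unc5c was at 695, 1105, 535 and 14.3 CPM in CHC2 and 44.5 to 181 CPM (median 84.6) in PVC, high in libraries 1 to 3 and below the PVC range in library 4 (log2 fold change 3.02 ± 0.64, adjusted p = 0.0149). Unc5c had an adjusted p of 0.144 without library 3, 0.0734 without animal 11, 0.137 without PVC 7 and 8 and 0.120 without PVC 9 and 10. Both Slit ligands of the Robo receptors that passed were low. Slit2 was at 1.43, 1.53, 0.344 and 0 CPM in CHC2 and 202 to 422 CPM (median 253) in PVC, with 5 counts in CHC2 and 5729 in PVC (log2 fold change -8.22 ± 1.47, adjusted p = 0.00685), and Slit3 at 6.43, 1.53, 3.44 and 9.88 CPM in CHC2 and 45.6 to 217 CPM (median 95.5) in PVC (log2 fold change -4.17 ± 0.82, adjusted p = 0.00970). Slit3 had an adjusted p of 0.0619 without PVC 7 and 8 and 0.0656 without PVC 9 and 10. Upper chandelier cells held 2.53 to 35.1 CPM of Slit2. Sema5b, a semaphorin, was below every lane pair, at 7.15, 6.90, 11.4 and 7.14 CPM in CHC2 and 31.8 to 66.9 CPM (median 47.5) in PVC (log2 fold change -2.28 ± 0.46, adjusted p = 0.0114; 0.0669 without PVC 7 and 8 and 0.0826 without PVC 9 and 10), whereas its relative Sema5a rose (adjusted p = 0.0370, 0.0583 without library 2, 0.149 without library 3, 0.0874 without animal 11, 0.204 without PVC 7 and 8 and 0.219 without PVC 9 and 10) and Sema3c rose (adjusted p = 0.0300). Sema3c had an adjusted p of 0.284 without animal 11, 0.198 without PVC 7 and 8 and 0.190 without PVC 9 and 10.

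Of 24 cadherins and protocadherins 1 rose and 3 fell, with a median of 0.25. Pcdh8, an activity-regulated protocadherin, was at 979, 69.7, 423 and 124 CPM in CHC2 and 7.88 to 58.4 CPM (median 29.9) in PVC (log2 fold change 4.01 ± 0.58, adjusted p = 0.00207), above every lane pair. Pcdh7 was at 2.50, 27.6, 5.85 and 29.1 CPM in CHC2 and 99.8 to 278 CPM (median 169) in PVC (log2 fold change -3.36 ± 0.48, adjusted p = 0.00202), Cdh7 at 0.715, 2.30, 1.03 and 0.549 CPM in CHC2 and 24.4 to 144 CPM (median 52.7) in PVC (log2 fold change -5.60 ± 1.06, adjusted p = 0.00844), and Cdh18 at 22.2, 24.5, 29.3 and 17.0 CPM in CHC2 and 89.7 to 235 CPM (median 151) in PVC (log2 fold change -2.50 ± 0.48, adjusted p = 0.00880). Cdh18 had an adjusted p of 0.0796 without PVC 7 and 8. These 3 lay below every lane pair. In the perineuronal net list of 10, 2 rose and none fell, while the median was -1.01 and 6 had negative log2 fold changes. Hapln1, a link protein that ties proteoglycans to hyaluronan, was above every lane pair at 755, 313, 429.6 and 83.5 CPM in CHC2 and 26.4 to 61.4 CPM (median 30.1) in PVC (log2 fold change 3.78 ± 0.76, adjusted p = 0.0110). Hapln1 had an adjusted p of 0.123 without PVC 7 and 8 and 0.106 without PVC 9 and 10. Vcan, the proteoglycan versican, was at 62.9, 76.2, 76.2 and 3.02 CPM in CHC2 and 0 to 6.59 CPM (median 1.32) in PVC (log2 fold change 5.16 ± 1.26, adjusted p = 0.0275). Vcan had an adjusted p of 0.0732 without library 3, 0.0571 without animal 11, 0.209 without PVC 7 and 8 and 0.165 without PVC 9 and 10. Acan, the proteoglycan that marks nets around PV cells, stayed below 1 CPM in all 4 CHC2 libraries, against 0 to 18.9 CPM (median 4.71) in PVC, and did not pass (adjusted p = 0.262).

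Of 57 oxidative phosphorylation genes 14 fell and 1 rose, against 3.77% and 3.11% of all tested genes, with a median of -0.71. All 4 CHC2 libraries lay below all 8 lane pairs at 28 of them, against 8.57% of all genes. Against CHC1, 10 of the 57 were called lower in CHC2 and 1 higher, beside 1.76% and 1.08% of all tested genes. The list summed to 15097, 18466, 22124 and 16478 CPM in CHC2, 28956 to 37053 CPM in PVC and 26257 to 29764 CPM in CHC1. Cox7b, a cytochrome oxidase subunit, was at 214, 187, 462 and 354 CPM in CHC2 and 909.7 to 1779.6 CPM (median 1217) in PVC (log2 fold change -1.81 ± 0.27, adjusted p = 0.00216), and Cox6c at 58.6, 126, 506 and 170.2 CPM in CHC2 and 1327 to 2430.2 CPM (median 1588) in PVC (log2 fold change -2.62 ± 0.46, adjusted p = 0.00612). Cox5a fell as well, at 164, 348, 316 and 274 CPM in CHC2 and 590.0 to 1123 CPM (median 943) in PVC (log2 fold change -1.53 ± 0.24, adjusted p = 0.00319). The other 11 that fell were Cox8a, Atp5g3, Atp5k, Atp5l, Atp5o, Ndufa1, Ndufa5, Ndufa6, Ndufb3, Uqcrb and Uqcrh, and each of those calls ended in at least 1 of the 8 fits. Ndufa8, a complex I subunit, was the 1 that rose, at 940.2, 215, 603 and 475 CPM in CHC2 and 244 to 348 CPM (median 294) in PVC (adjusted p = 0.0250). Ndufa8 had an adjusted p of 0.201 without library 1, 0.0672 without animal 11, 0.118 without PVC 7 and 8 and 0.211 without PVC 9 and 10. Among members not called, Atp5a1 was at 2379, 3056, 1701 and 1739.6 CPM in CHC2 and 1557 to 1942 CPM (median 1819) in PVC, and Ndufv1 at 734, 788, 874 and 866 CPM in CHC2 and 244 to 458 CPM (median 318) in PVC. Many of these genes have near-identical processed copies, so these values are uncertain, and fewer genes were detected per CHC2 library, as given above. The part of either in these calls was not tested.

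Immediate early genes, which respond to activity or handling, rose in 2 of 12 cases with a median of 1.93. Fos was at 284, 597, 887 and 1379 CPM in CHC2 and 0.942 to 279 CPM (median 81.3) in PVC (adjusted p = 0.0357). Fos had an adjusted p of 0.0819 without animal 12, 0.202 without PVC 7 and 8 and 0.208 without PVC 9 and 10. Egr1 was at 69.4, 11.5, 207 and 366 CPM in CHC2 and 0 to 67.7 CPM (median 17.2) in PVC (adjusted p = 0.0328). Egr1 had an adjusted p of 0.0750 without library 1, 0.243 without animal 12, 0.214 without PVC 7 and 8 and 0.175 without PVC 9 and 10. Fos exceeded every lane pair in all 4 libraries, and upper chandelier libraries held 684 to 3612 CPM of Fos and 10.4 to 1759 CPM of Egr1. Arc and Egr3 had 0 counts in all 4 CHC2 libraries.

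**Figure D4:**
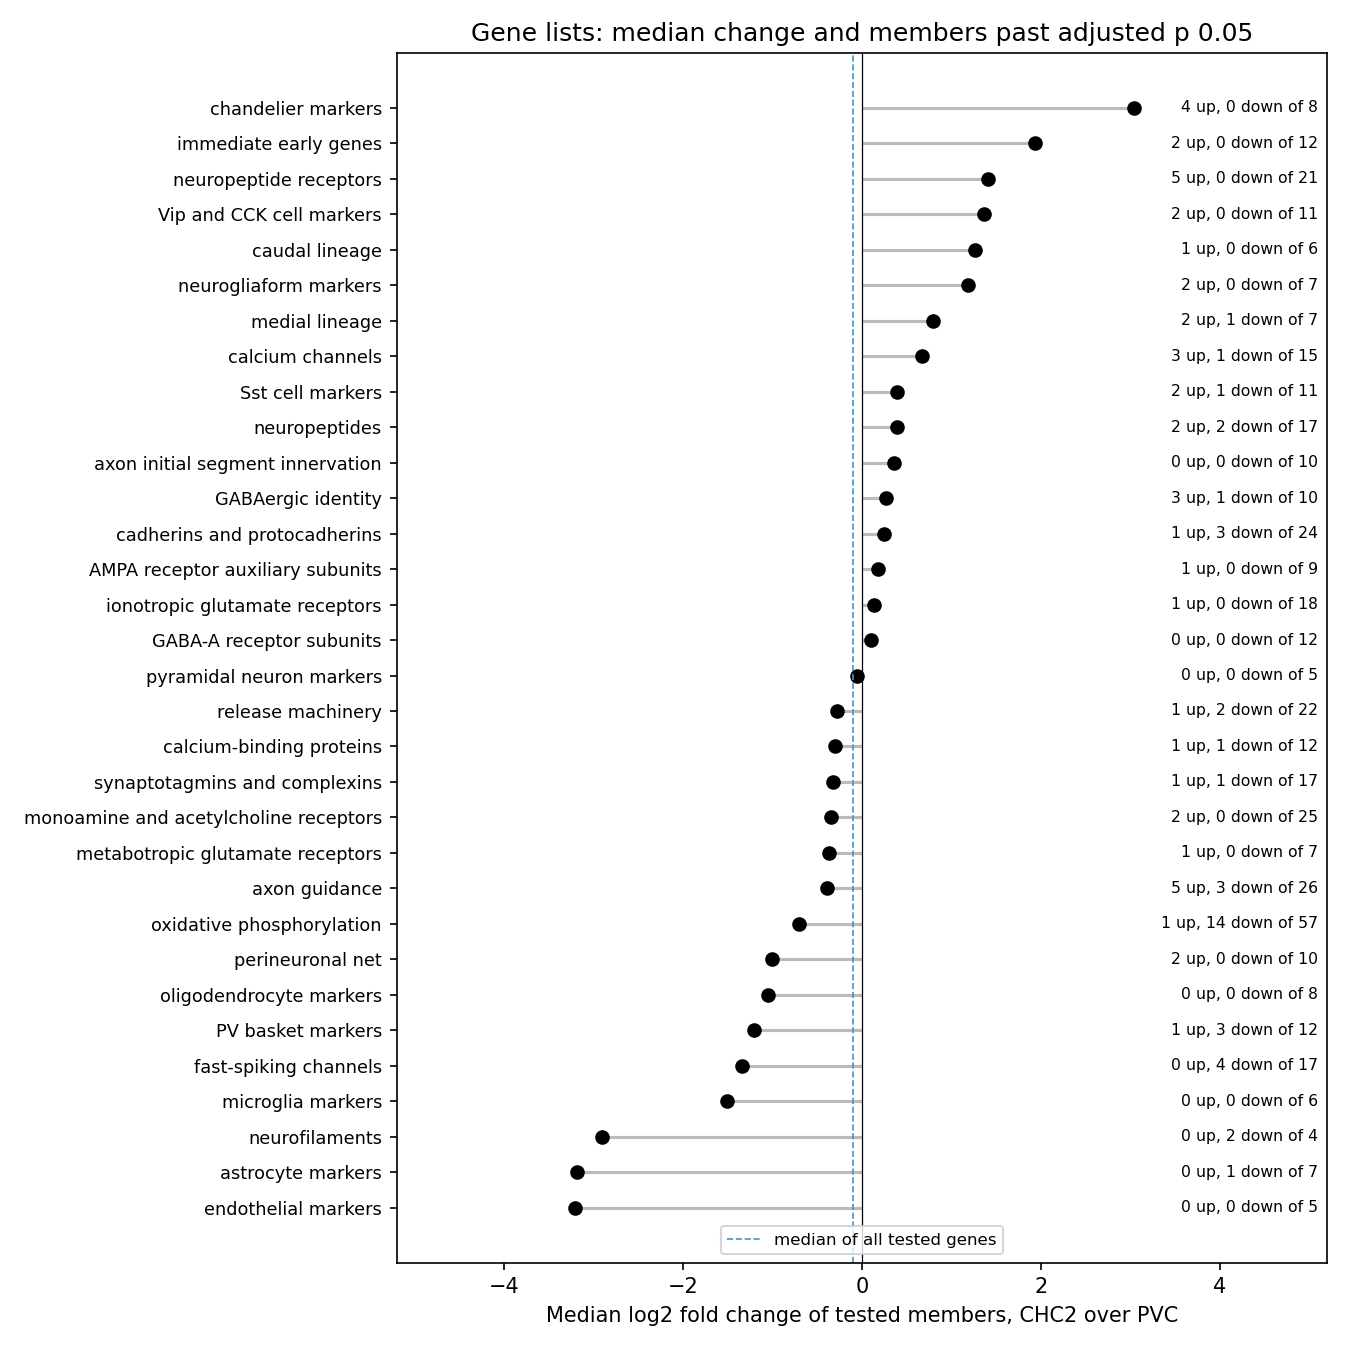
Median log2 fold change, CHC2 over PVC, of the tested members of 32 gene lists (points), with the number of members past adjusted p 0.05 in each direction at the right and the median of all tested genes as a dashed line. Chandelier markers lie highest, and neurofilaments, fast-spiking channels and PV basket markers are among the lowest, together with astrocyte and endothelial markers.

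The plot of list medians puts these groups side by side. Medians of the oligodendrocyte, microglia and endothelial lists were -1.05, -1.51 and -3.20, but with genes of no count in a group set at their bound they were -0.27, 0.00 and -1.46, and edgeR called 0 of their members. An unadjusted p under 0.05 was found for 0 of 8 oligodendrocyte, 0 of 6 microglia and 1 of 5 endothelial markers, and DESeq2, which gave an adjusted p for 3, 5 and 3 of them, called 0, 0 and 1. The summed oligodendrocyte level was 32.5, 145, 24.9 and 31.0 CPM in CHC2 and 27.3 to 132 CPM (median 47.1) in PVC, above the PVC range in library 2. That of microglia markers was 62.2, 0.766, 29.6 and 33.5 CPM in CHC2 and 3.56 to 37.7 CPM (median 5.74) in PVC, above the range in library 1. Endothelial markers summed to 2.14, 6.90, 6.54 and 0.549 CPM in CHC2 and 10.0 to 66.2 CPM (median 16.3) in PVC. Mag, Mobp, C1qa, Csf1r and Cldn5 were at 0 in all 4 CHC2 libraries, whereas Mbp was at 72.2 and 22.8 CPM in CHC2 animals 11 and 12, against 27.2 and 28.6 in the PVC animal pairs, and P2ry12 at 31.1 and 6.98 CPM in CHC2, against 3.16 and 12.1 in PVC. Astrocyte markers summed to 118, 25.3, 28.0 and 59.5 CPM in CHC2 and 52.5 to 316 CPM (median 193) in PVC. Of 7 tested, 1 fell, Aldoc, with 0 counts in CHC2 and 35.1 to 139.8 CPM in PVC, at least 215-fold lower (adjusted p = 0.00461). Gfap was at 0 in both types and Gja1 at 0 in CHC2, against 0 to 17.2 CPM in PVC. Slc17a7, the vesicular glutamate transporter of pyramidal neurons, was at 0, 0, 6.54 and 0 CPM in CHC2 and 0 to 7.54 CPM (median 1.77) in PVC. The 9 pyramidal markers summed to 19.3, 22.2, 209 and 9.33 CPM in CHC2 and 44.1 to 105 CPM (median 85.5) in PVC, above the PVC range in library 3 and below it in the others, and Camk2a was at 18.5 and 119 CPM in CHC2 animals 11 and 12, against 60.5 and 64.1 CPM in the PVC pairs. Of the 5 pyramidal markers tested edgeR called 0 and none had an unadjusted p under 0.05, and DESeq2 called 0 of the 3 to which it gave an adjusted p. The part of these cell types in the results was not tested.

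Sex-linked genes followed the labels in part. Xist, the transcript of the inactive X chromosome, had 0 counts in the male CHC2 libraries and 63.2 to 161 CPM in PVC lane pairs, and was at least 266-fold lower (adjusted p = 4.0e-05). The Y-linked Ddx3y was at 709, 1354, 266 and 330.0 CPM in CHC2 and 60.9 to 253 CPM (median 128) in PVC (log2 fold change 2.61 ± 0.50, adjusted p = 0.00888). Ddx3y had an adjusted p of 0.0598 without animal 11, 0.0990 without PVC 7 and 8 and 0.0944 without PVC 9 and 10. Eif2s3y, also Y-linked, was at 161, 0, 144 and 221 CPM, so library 2 lacked it while holding the most Ddx3y. In PVC, counts of Xist were assigned to 125 of 127 cells and counts of both Xist and Eif2s3y to 93 (73.2%), although each animal is labelled male or female. Cells within a library hardly differed, as given above, so these counts do not establish that single cells held both. The reason for them was not tested.

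Beyond the lists, the largest differences without overlap between the 4 CHC2 libraries and the 8 lane pairs were ranked by fold change, among genes of at least 50 CPM in the higher type. Among the 14 highest in CHC2 were Gdf10, Kit, Igf1, Adarb2, Nfib, Ict1, Pcdh8, Errfi1, Hapln1, Ppdpf, Kcnd3, Ftl1 and Mpdz. Gdf10, a growth factor of the BMP family, was at 85.8, 219, 23.4 and 141 CPM in CHC2, and the 16 PVC libraries held 1 count in total (adjusted p = 0.0152). Gdf10 had an adjusted p of 0.161 without PVC 7 and 8 and 0.119 without PVC 9 and 10. Mpdz, a scaffold with many PDZ domains, varied little among the CHC2 libraries, at 1229, 1021, 911 and 851 CPM in CHC2 and 40.9 to 149 CPM (median 105) in PVC (log2 fold change 3.64 ± 0.42, adjusted p = 0.000326), and Ftl1, the ferritin light chain, was similar at 617, 766, 579 and 487 CPM in CHC2 and 41.5 to 99.7 CPM (median 61.1) in PVC (log2 fold change 3.65 ± 0.42, adjusted p = 0.000326), with processed copies that may share its reads. Igf1, an insulin-like growth factor, was at 12.9, 118, 77.8 and 123 CPM in CHC2 and 0.471 to 9.96 CPM (median 4.03) in PVC (log2 fold change 4.45 ± 0.72, adjusted p = 0.00378). Igf1 had an adjusted p of 0.0627 without PVC 9 and 10. Nfib, a transcription factor, was at 1298, 559, 1199.5 and 258 CPM in CHC2 and 10.5 to 79.5 CPM (median 62.0) in PVC (log2 fold change 4.21 ± 0.73, adjusted p = 0.00565). Nfib had an adjusted p of 0.0690 without PVC 7 and 8 and 0.0710 without PVC 9 and 10. Ict1 was called at an adjusted p of 0.00768 (0.0775 without PVC 7 and 8 and 0.0972 without PVC 9 and 10). Errfi1 passed at 0.0194 (0.0710 without animal 11, 0.157 without PVC 7 and 8 and 0.163 without PVC 9 and 10). Ppdpf passed at 0.00676 (0.0727 without PVC 7 and 8 and 0.0908 without PVC 9 and 10).

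On the lower side the 14 included Xist, Slc30a3, Aldoc, Slit2, Ptgs1, Rbp4, Eif5a2, Lypd6b, Cartpt, Paqr7, Rcc1, Lgals1 and Klhl5. Slc30a3, the transporter that loads zinc into synaptic vesicles, had 0 counts in CHC2 and 38.7 to 138 CPM in PVC, at least 226-fold lower (adjusted p = 0.0300). Slc30a3 had an adjusted p of 0.0856 without animal 11, 0.0879 without animal 12, 0.103 without PVC 7 and 8 and 0.0921 without PVC 9 and 10. Rbp4, a retinol carrier, was at 0, 0, 0 and 2.20 CPM in CHC2 and 31.3 to 114 CPM (median 71.0) in PVC (log2 fold change -7.03 ± 1.28, adjusted p = 0.00738). Lypd6b, a member of the Ly6 family, was at 0, 0.766, 1.38 and 0 CPM in CHC2 and 28.4 to 130.0 CPM (median 64.3) in PVC (log2 fold change -6.54 ± 1.05, adjusted p = 0.00376), and Lgals1, the lectin galectin-1, at 0.715, 0.766, 2.07 and 0 CPM in CHC2 and 46.2 to 107 CPM (median 63.1) in PVC (log2 fold change -5.87 ± 0.69, adjusted p = 0.000363). Each of these 4 genes had at most 8 counts over the CHC2 libraries. Eif5a2, a translation factor, was at 0, 0, 0 and 2.20 CPM in CHC2 and 41.5 to 73.7 CPM (median 60.0) in PVC (log2 fold change -6.69 ± 1.15, adjusted p = 0.00565). Ptgs1 was called at an adjusted p of 0.0287 (0.101 without animal 11, 0.0742 without animal 12, 0.103 without PVC 7 and 8 and 0.0948 without PVC 9 and 10). Cartpt passed at 0.0430 (0.0971 without library 1, 0.0953 without animal 12, 0.161 without PVC 7 and 8 and 0.157 without PVC 9 and 10). Paqr7 passed at 0.0107 (0.0564 without PVC 7 and 8 and 0.0503 without PVC 9 and 10). Rcc1 passed at 0.0299 (0.0948 without animal 11, 0.0918 without animal 12, 0.107 without PVC 7 and 8 and 0.101 without PVC 9 and 10). Klhl5 passed at 0.00899 (0.0584 without PVC 9 and 10).

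Each deep library also carried genes nearly absent from the other 3. Genes of at least 100 CPM in a library and more than 10 times the level in each of the other 3 numbered 77 in library 1, 127 in library 2, 72 in library 3 and 139 in library 4, by ratios taken after adding 1 CPM. Library 1 was led by Cbln2, a secreted synaptic organiser, at 257 CPM against 0 in libraries 2 to 4 and a PVC median of 0, followed by Ftsjd1, Slc31a2, Dfnb59 and Fkbp14. In library 2 the leaders were Wnt3, a secreted signal, at 619 CPM, Angptl1 at 587, Arl6ip6, Tac1 and Icam4. Library 3 had Slc25a29, Rcn1, Tdrd7, St6galnac1 and Kif1c between 149 and 209 CPM. Library 4 was led by Vip at 1918 CPM, then by Fxyd6 at 327, Npy2r at 304, Creg2 at 181 and Crh at 149.9. Of these 20 genes, Tac1, Tdrd7 and Creg2 had a PVC median above 50 CPM, and 9 had a PVC median of 0. Among the 483 genes called higher in CHC2, 16 had more than 90% of their summed level in 1 library, 7 of them in library 4 and 6 in library 2.

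**Figure D5:**
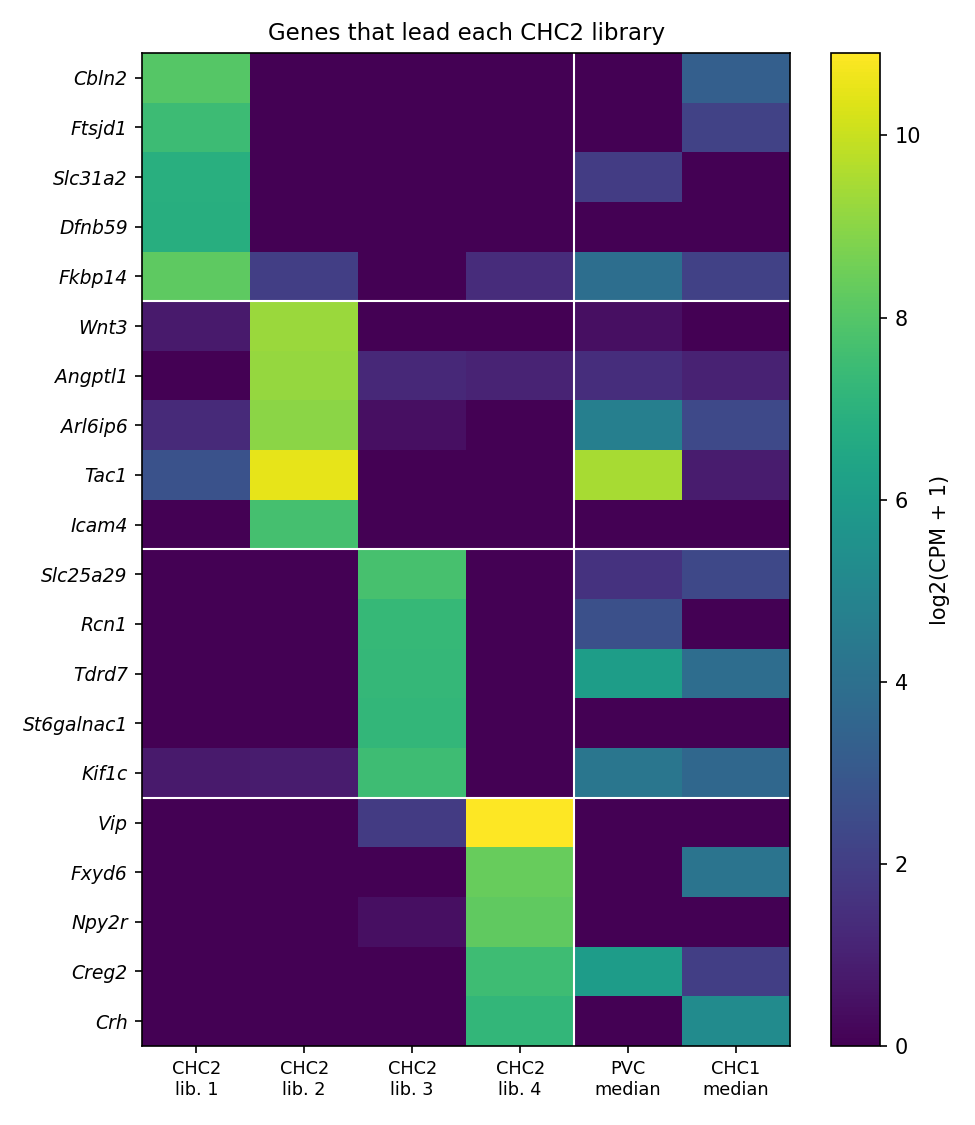
Level as log2(CPM + 1) of the 5 leading genes of each CHC2 library (rows, divided by white lines) in the 4 CHC2 libraries and as medians of the 8 PVC lane pairs and 5 CHC1 libraries (columns). Each block is bright in its own library and mostly dark in the other 3, and Tac1 is also bright in PVC.

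Upper chandelier cells carry the same driver, and the comparison asks where the deep cells differ from them. In the same fit 440 of 15533 genes differed between CHC2 and CHC1 (2.83%), 167 higher in CHC2 (1.08%) and 273 lower (1.76%), and between CHC1 and PVC 62 (0.399%). The comparisons share the CHC2 sums, so their values are given side by side. With a separate spread for each type in limma, 51 genes were called between CHC2 and CHC1, and 46 of the 440 calls were kept. The outcome of that check for each gene below is not given. Kcnd3 was 95.1 to 345 CPM in upper chandelier libraries and CHC2 did not pass against CHC1 (log2 fold change against CHC1 0.39 ± 0.57, adjusted p = 0.719), nor did it for Pcdh8 (0.55 ± 0.52, adjusted p = 0.554). Mpdz (log2 fold change 2.15 ± 0.39, adjusted p = 0.0148), Ftl1 (2.44 ± 0.40, adjusted p = 0.00917), Cacna2d1 (2.51 ± 0.34, adjusted p = 0.00320) and Oprm1 (3.40 ± 0.71, adjusted p = 0.0254) were higher than in CHC1 as well as in PVC. Vgf was lower than in both (log2 fold change against CHC1 -4.19 ± 0.54, adjusted p = 0.00183). Kit was between: higher than in PVC and lower than in CHC1 (-2.11 ± 0.53, adjusted p = 0.0477). Kcnab1, Rab3c and Cacnb4 were higher than in CHC1 and not called against PVC: Kcnab1 (log2 fold change 1.95 ± 0.47, adjusted p = 0.0440), Rab3c (log2 fold change 1.26 ± 0.31, adjusted p = 0.0460) and Cacnb4 (log2 fold change 2.15 ± 0.28, adjusted p = 0.00246). Cacnb4 stood at 918, 533, 519 and 527 CPM in CHC2 and 338 to 599.5 CPM (median 465) in PVC. Rab3c stood at 539.8, 1127, 492.5 and 628 CPM in CHC2 and 516 to 1481 CPM (median 1111) in PVC. Leaving out each of the 2 CHC1 animals, 2 CHC2 animals and 4 CHC2 libraries in turn, the calls against CHC1 of Vgf and Cacnb4 held in all 8 fits. Without CHC1 animal 13 the adjusted p against CHC1 was 0.127 for Mpdz, 0.0512 for Ftl1, 0.180 for Oprm1, 0.123 for Kit, 0.222 for Kcnab1 and 0.0511 for Rab3c. Without CHC1 animal 14 it was 0.106 for Mpdz, 0.108 for Ftl1, 0.0508 for Cacna2d1, 0.133 for Oprm1, 0.222 for Kit, 0.194 for Kcnab1 and 0.281 for Rab3c. Calls also ended without CHC2 animal 11 for Oprm1 (0.0756), Kit (0.113), Kcnab1 (0.0654) and Rab3c (0.160), and without animal 12 for Kit (0.0711). Of the CHC2 libraries, leaving out library 3 ended the call of Cacna2d1 (0.136) and Oprm1 (0.165), library 2 that of Kcnab1 (0.0627) and Rab3c (0.0972), and library 1 (0.168) or library 4 (0.0659) that of Kit. Without CHC1 animal 13 the counts against CHC1 were 17 higher and 41 lower, and without animal 14 they were 5 and 38, each with 1 CHC1 replicate left.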

How the data were processed

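Single red-fluorescent neurons were profiled after linear amplification of polyadenylated RNA, per the labels' protocols. The authors deposited a table of counts per gene and cell whose values are estimated counts: 4.07% of the values above 0 are not whole. Bowtie 0.12.7 and the build mm9 are named in the submitters' processing notes; the sources used here do not say how tags were counted. Floors of 3 counts cover counting error only. The SE of a log2 fold change was derived from the test, as its absolute value over the square root of F. The 95% intervals of fold changes use this SE and the same t quantile, 2.15, for all genes.

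Counts were summed over cells per library and per replicate of the fit, then rounded to whole numbers. All 7 types entered 1 fit of 16 replicates with 9 residual degrees of freedom (edgeR 4.0.16 in R 4.3.3, quasi-likelihood test, TMM scaling, low-count filter by type, Benjamini-Hochberg adjustment, threshold 0.05). CHC2 animals 11 and 12 were compared with PVC animal pairs 7 and 8, and 9 and 10. Fold changes are on the TMM scale with their SE, and printed levels are unscaled CPM. Correlations between profiles, the SDs over genes and the nearer means used log2(CPM + 1) after TMM scaling. A group with 0 counts was set at 3 counts for a bound. Alternatives used DESeq2 1.42.0 and limma 3.58.1; other values came from Python 3.11.15 with pandas 2.3.3, numpy 2.4.6, scipy 1.17.1 and matplotlib 3.10.9. Tested on data simulated for CHC2 against PVC with 50 genes changed at each size, the fit recovered 26 at a log2 fold change of -4, 36 at 4, 3 at -2 and 5 at 2. Apart from the changed genes, the simulated types shared a common mean profile and the same spread per gene. The real CHC2 libraries spread more than the PVC lane pairs (median SD 1.39 and 0.53 log2 units), so this recovery need not hold for them. The labels number 18 animals, against 4 in the design text.

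The members and lists were chosen with earlier results of these data known. Named were the driver genes, called list members, list markers described per library, the 14 largest fold changes each way among called genes of at least 50 CPM without overlap, and 5 leading genes per CHC2 library, passing over symbols that are not usual gene symbols. Results for some genes that meet these rules are not reported here.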

Additional observations from a re-analysis of the deposited data

Results flagged for a closer look

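Of 69 groups of 4 or 8 values examined, 18 held a value whose distance to its nearest neighbour exceeded the 95% critical value of Dixon's test for the group's range. That critical value assumes normally distributed values. Where all other values are 0, any count is flagged, so the 18 flags cannot be set against a rate expected by chance. In the CHC2 libraries, library 4 was far above the others for Vip at 1918 CPM, Adarb2 at 2031 CPM, Rbp4 and Eif5a2 at 2.20 CPM each and Ptgs1 at 0.549 CPM. Library 3 stood apart for Nkx2-1 at 60.2 CPM, Nos1 at 45.4 CPM, Klhl5 at 3.79 CPM and Calb2 at 0.344 CPM, which is 1 count. Library 2 stood apart for Ict1 at 712 CPM and Cartpt at 3.83 CPM.

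Among the PVC lane pairs, the pair of index 1 on lanes 1 and 2 held the 1 count of Gdf10, 0.727 CPM. The pair of index 1 on lanes 7 and 8 was low for Paqr7 at 12.1 CPM. The pair of index 2 on lanes 1 and 2 was high for Nos1 at 4.72 CPM and Vip at 0.859 CPM. The pair of index 4 on lanes 3 and 4 was high for Calb2 at 5.00 CPM and Ict1 at 56.4 CPM, and that of index 4 on lanes 5 and 6 for Igf1 at 9.96 CPM. No explanation of these values was tested.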

How the results depend on the processing

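For CHC2 against PVC, DESeq2 called 1489 genes higher and 1242 lower, the 18 labelled animals as replicates 1641 and 1484, the libraries as replicates 1943 and 1416, and a fit of CHC2 and PVC alone 0 and 0. A separate spread for each type called 39 lower. With 1 CHC2 library alone the counts were 896 and 1162 for library 1, 1613 and 2340 for library 2, 772 and 897 for library 3, and 1389 and 1814 for library 4. Over the fits that left out an animal, an animal pair or a library, 33 to 879 genes were higher and 117 to 918 lower, the lowest without a PVC pair and the highest without CHC2 animal 12; a lone replicate is assumed there to vary like the other groups.

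For CHC2 against CHC1, scaling by DESeq2 size factors called 261 higher, libraries as replicates 1087 higher and 861 lower, and a separate spread 49 and 2. Leaving out a sample gave 5 to 665 higher and 38 to 678 lower. The log2 fold change against PVC turned negative for Nkx2-1 (-0.079 without CHC2 animal 12, -0.03 without library 3, -0.22 with library 1 alone, and up to 1.26 without animal 11), for Vip (-2.24 without animal 12 and up to 13.88 without PVC animals 9 and 10, -2.23 with library 1 alone, -2.22 with library 2 alone), for Cacng5 (-3.10 without animal 12) and for Cck (-0.97 with library 2 alone). Over genes of at least 50 CPM, r with PVC minus r with CHC1 moved to -0.060 in library 1, -0.074 in library 3 and -0.057 in library 4. The cause of these changes was not tested.

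CHC2 and PVC libraries share replicate numbers in the labels. Deviations of same-numbered libraries correlated at -0.008 to 0.027 and those of different numbers at -0.019 to 0.023, so the numbers do not pair the libraries. With the replicate number as a block, labelled libraries gave 1204 higher and 981 lower, against 2869 and 1886 without the block. Of the 100 called members, 99 were called with DESeq2 size factors, 99 with DESeq2, 96 without the low-count filter and 97 with the block, where the adjusted p was 0.101 for Sst and 0.0879 for Vip; 44 were called with a separate spread.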
